A study of Mus musculus with 4 samples.

Results

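Genes with shifted transcript usage were those in which the share of a gene's reads given to one of its transcripts differed between wild type and Ezh2 K307R mouse livers. A gene entered when it had 2 or more RefSeq transcripts and at least 100 estimated reads in each of the 4 livers. Members were selected on the measured shares: a gene was chosen when the mean share of any transcript differed by 0.2 or more, which is 20 percentage points, between the genotypes and the livers of the 2 genotypes did not overlap. Of 17543 genes in the tables, 4038 had 2 or more transcripts, 2624 of these had enough reads, and 265 of the 2624 (10.1%) were chosen, with 834 transcripts between them. Because the shares in this contrast chose the members, shares are given below as a description with no test. "Shifted" names the rule and not a tested change. A transcript missing from the table of a liver was counted as 0%. The smallest FPKM listed was 0.01, so such a 0 may stand for a lower value that was not listed. No upper limit was worked out for its share.

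RNA was measured by sequencing in 4 mouse livers of strain C57BL/6, 2 labelled WT and 2 homozygous for the point mutation Ezh2 K307R, a lysine-to-arginine change in the protein. The livers were frozen on dry ice, RNA was taken with TRIzol and libraries were made by BGI, per the labels. The labels give no sex, age, hour of collection or substrain and do not say whether the replicates were separate animals, so the spread between replicates may be technical. The mutation was present in the whole animal as far as the labels say, with no treatment in either group. Xist was high in both mutant livers and Y-linked Ddx3y was read in the WT livers alone, so genotype and sex chromosomes cannot be told apart in any result below.

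Ezh2 is the enzyme of Polycomb repressive complex 2, which methylates a histone and keeps target genes silent. Most mammalian genes make several transcripts, by starting at different first exons, by including or skipping an exon, or by using a nearby splice site, and the liver uses such choices to make tissue-specific forms of enzymes and regulators. At a tandem splice acceptor the splicing machinery can join the upstream exon at either of a pair of neighbouring AG dinucleotides, so that the protein gains or loses a single amino acid with the reading frame kept.

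Sequence is shown first for a selection of the 58 members whose transcripts differed by a placed run of coding bases. Such members come first because the largest differences in share lay between transcripts that differ by only a few bases. The runs of the other such members are not shown. Each run is the coding strand of the longer transcript, 5′ to 3′, from the GENCODE M21 transcripts on GRCm38 (mm10). Capitals mark the bases present only in the longer of the opposed transcripts, and up to 30 coding bases are given on each side.
Otud4: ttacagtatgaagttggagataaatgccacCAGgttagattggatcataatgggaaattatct
Mon2: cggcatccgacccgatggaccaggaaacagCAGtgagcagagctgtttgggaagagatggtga
Tspan33: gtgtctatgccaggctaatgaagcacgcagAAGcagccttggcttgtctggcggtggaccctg
Cwc22: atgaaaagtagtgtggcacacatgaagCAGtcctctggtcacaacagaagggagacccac
Sec24a: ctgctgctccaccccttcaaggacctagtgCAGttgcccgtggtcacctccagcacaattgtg
Smarca4: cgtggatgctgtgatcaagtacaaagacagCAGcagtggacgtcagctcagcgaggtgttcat
Adgre5: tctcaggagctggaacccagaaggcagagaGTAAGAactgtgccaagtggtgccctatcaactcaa
Pigg: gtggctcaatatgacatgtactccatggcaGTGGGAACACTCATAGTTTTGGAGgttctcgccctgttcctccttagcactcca
Tec: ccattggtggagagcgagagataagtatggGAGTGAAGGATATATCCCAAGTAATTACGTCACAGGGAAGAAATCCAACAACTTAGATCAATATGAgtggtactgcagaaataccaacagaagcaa
Hnrnpd: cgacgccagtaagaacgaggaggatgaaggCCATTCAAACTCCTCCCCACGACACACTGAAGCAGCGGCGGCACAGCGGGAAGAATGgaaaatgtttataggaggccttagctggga
Opa1: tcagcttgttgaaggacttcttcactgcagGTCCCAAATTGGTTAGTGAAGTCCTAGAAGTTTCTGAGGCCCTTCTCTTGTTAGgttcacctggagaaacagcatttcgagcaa
Rbm39: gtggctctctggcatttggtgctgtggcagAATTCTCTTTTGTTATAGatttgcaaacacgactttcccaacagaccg
The capitals of Otud4 (chr8:79661038-79661040, + strand) and of Mon2 (chr10:123031122-123031124, - strand) are 3 bases at the 5′ end of an exon. Those of Cwc22 (chr2:77932764-77932766, - strand), Sec24a (chr11:51729576-51729578, - strand), Tspan33 (chr6:29710587-29710589, + strand) and Smarca4 (chr9:21699800-21699802, + strand) are of the same kind. In Adgre5 (chr8:83734296-83734301, - strand) and Pigg (chr5:108332169-108332192, + strand) the capitals lie at a splice donor, and in Rbm39 (chr2:156154272-156154289, - strand) at a splice acceptor. The capitals of Tec (chr5:72779421-72779486, - strand), Hnrnpd (chr5:99976534-99976590, - strand) and Opa1 (chr16:29588823-29588876, + strand) are whole exons that one transcript skips.

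Among all 265 members, the opposed transcripts, meaning the one with the largest excess of share in the mutant livers and the one with the largest excess in the WT livers, differed by a median of 63 bases in length, against 114 bases in the 2359 genes with enough reads that were not chosen. The difference was 30 bases or less in 32.5% of members and 18.1% of the others. It was exactly 3 bases in 26 members (9.81%) and in 119 of the others (5.04%), so that 17.9% of the 145 genes with such a pair were members. In 18 of the 26 the 3 bases could be placed as a single run of coding bases, with a coding model for both opposed transcripts. Placement required a coding difference equal to the length difference, so pairs that differ outside the coding sequence are not among the 18. In all 18 the 3 bases lay at a splice acceptor and ended in AG, as they did in 65 of the 71 such pairs placed among the other genes. The 18 were Cbfa2t2, Ccdc93, Chfr, Cox18, Cwc22, Gabpb1, Med16, Mgrn1, Mon2, Nudcd1, Otud4, Pgam5, Sec24a, Smarca4, Tspan33, Tubgcp4, Txnip and Zfp426. They showed no common direction, since the longer form had the higher share in the mutant livers in 8 and the lower share in 10. Pairs 4 bases apart made up 7 members (2.64%) and 0.721% of the others.

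In 10 members the lead transcript, the one with the widest gap between the nearest livers of the 2 genotypes, held at least 80% of the gene's reads in every liver of one genotype and at most 20% in every liver of the other. They were Gtf2a1, Trim3, Ctdspl2, Rc3h2, Aktip, Otud4, Mon2, Vti1a, Pigg and Neurl4, and their opposed transcripts were a median of 12 bases apart. Gtf2a1, which encodes the large subunit precursor of the general transcription factor TFIIA, had 302 and 344 estimated reads on NM_175335 in the WT livers and 513 and 410 on NM_031391 in the mutant livers. Each transcript was absent from the tables of the other genotype, so the 2 groups stood 100 points apart. Trim3, a RING-type ubiquitin ligase, gave the same picture at lower depth, with 124 and 161 reads on NM_018880 in WT and 129 and 115 on NM_001285870 in the mutants. Its transcripts are 26 bases apart and have the same coding sequence.

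Rc3h2, which encodes the RNA-binding protein roquin-2 that promotes mRNA decay, had 97.8% and 93.8% of its reads on NM_001100591 in the WT livers and none in either mutant liver. The gene's total was 403 and 452 reads in WT and 428 and 438 in the mutants, so the totals overlapped while the transcript in use differed. Otud4, a deubiquitinase, had all of its 560 and 728 WT reads on NM_001256033, the form with the 3 extra bases shown above, and 10.1% and 12.9% of its mutant reads on that form. Mon2, a regulator of Golgi traffic, had 84.1% and 88.3% of its reads on NM_153395 in WT and 0.127% and 0.724% in the mutants, with gene totals of 833 and 1096 reads in WT and 931 and 1078 in the mutants. In Mon2 the longer acceptor form was the mutant one and in Otud4 it was the WT one, so the genotypes did not share a preferred acceptor.

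Ctdspl2, a small-phosphatase-like protein, had 3.03% and 5.14% of its reads on NM_212450 in WT and 100% and 100% in the mutants. Aktip, a partner of the kinase AKT with roles in vesicle traffic, had none of its WT reads and 87.3% and 95.2% of its mutant reads on NM_001302266. Vti1a, a SNARE protein of Golgi and endosome fusion, had 18.7% and 0% on NM_001293686 in WT and 100% and 100% in the mutants. Pigg, an ethanolamine phosphate transferase of GPI anchor synthesis, differed at the splice donor shown above. Its shorter form NM_001081234 held 18.6% and 19.4% in WT and 100% and 100% in the mutants. Neurl4, a centrosomal protein, had 100% and 80.3% on NM_001013414 in WT and 0% and 14.5% in the mutants, a wider spread within each genotype than the others of these 10.

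**Figure D1:**
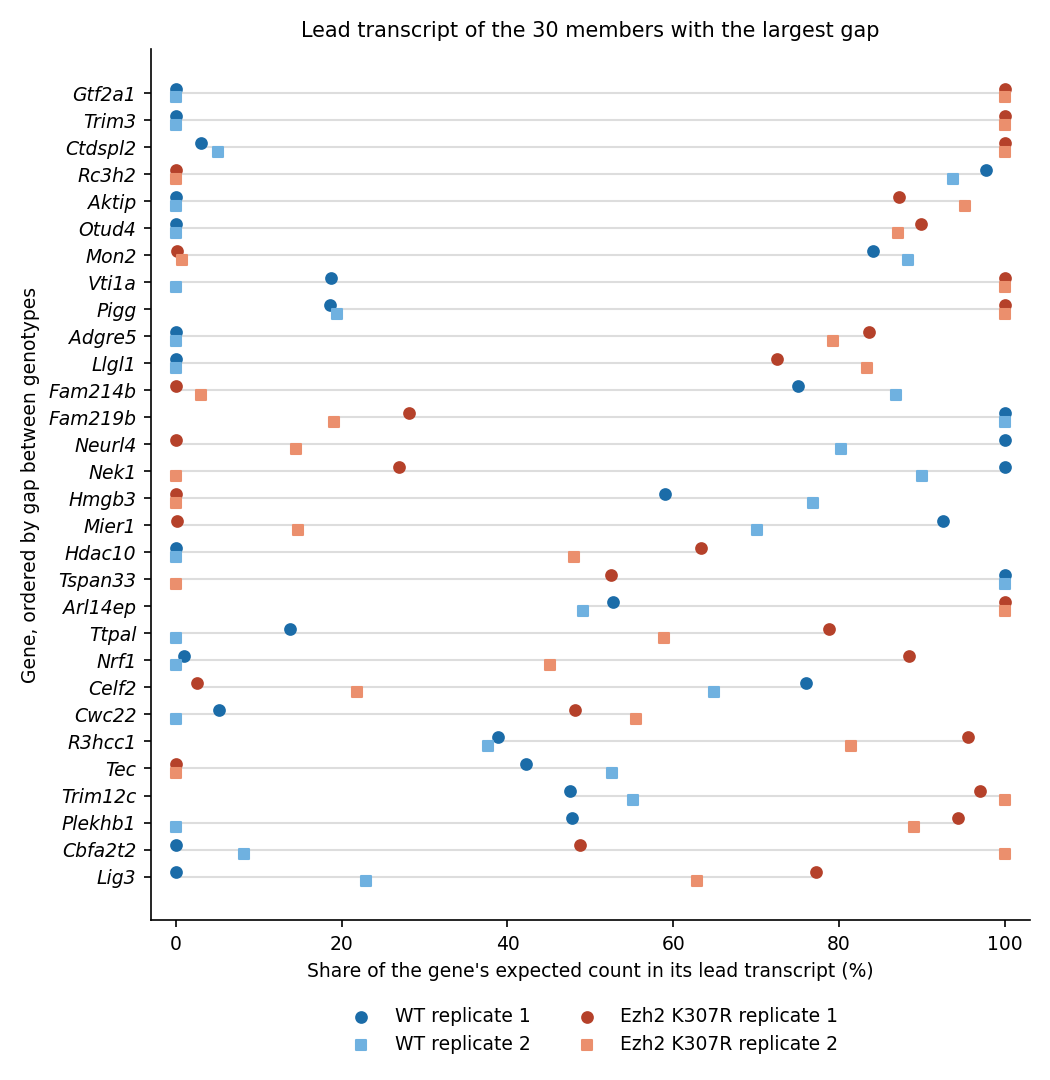
Share of each gene's estimated reads in its lead transcript (x axis, %) for the 30 members with the largest gap (y axis), with 1 point per liver, circles for replicate 1 and squares for replicate 2, blue for WT and red for Ezh2 K307R. The livers of the 2 genotypes lie at opposite ends for the genes at the top, such as Gtf2a1 and Trim3, while within a genotype points drift apart further down, as for Plekhb1 and Cbfa2t2.

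The largest gaps lay between transcripts of nearly equal length. Among the 30 members with the largest gap the opposed transcripts were a median of 19 bases apart, and 18 of the 30 were at most 30 bases apart. The 10 largest gaps, those of the genes above without Neurl4 and with Adgre5, all lay between transcripts at most 26 bases apart. Adgre5, the adhesion receptor CD97, had none of its WT reads and 83.6% and 79.3% of its mutant reads on NM_001163029. Reads that match both transcripts are divided between them by RSEM's model, so a share rests on the reads that cover the differing bases, and the tables do not give their number.

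**Figure D2:**
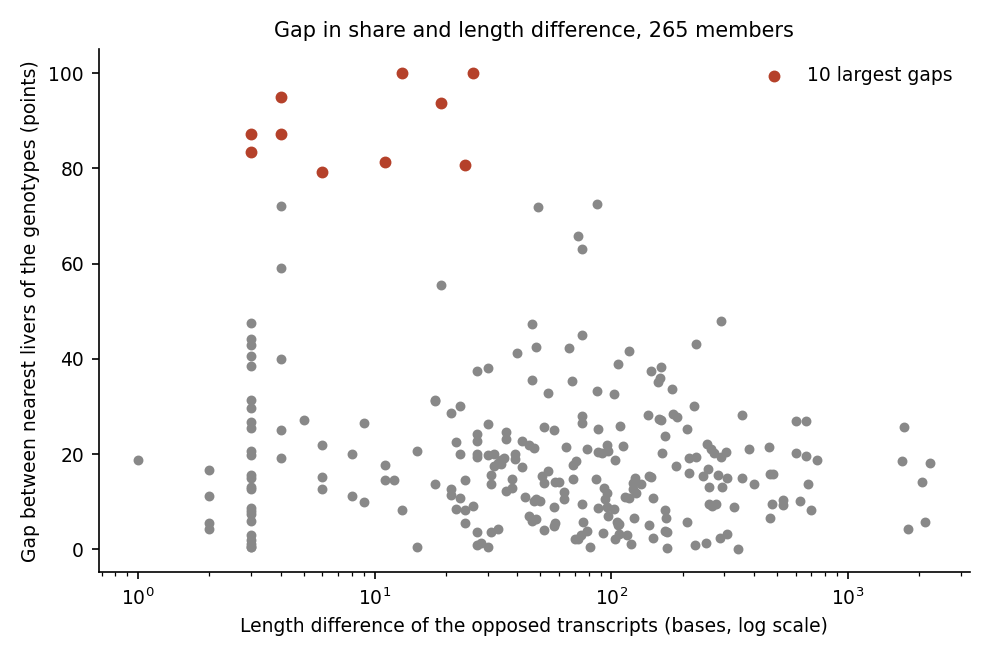
Gap between the nearest livers of the 2 genotypes (y axis, percentage points) against the length difference of the opposed transcripts (x axis, bases, log scale), with 1 point per member and the 10 largest gaps in red. The red points all lie at 26 bases or less, and the column of points at 3 bases is the set of 26 pairs that differ by 3 bases.

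Replicate livers of a genotype differed as often as the genotypes did. Between the 2 WT livers, 623 of the 2624 genes (23.7%) had a transcript whose share differed by 20 points or more, and between the 2 mutant livers 758 did (28.9%). A single WT liver against a single mutant liver gave 637 to 736 genes, which lies between those 2 counts, and the genotype means differed by 20 points or more, overlap allowed, in 437 (16.7%). For the members' lead transcripts the median gap was 16.1 points, beside a median range of 10.05 points between the WT livers and 11.6 points between the mutant livers. The gap was 20 points or more in 102 members, 50 or more in 17 and under 5 in 35, and it was wider than the range within either genotype in 116. In 40 members both genotypes kept within 10 points and the gap was at least 20 points.

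Members were more frequent where reads were few, and so was spread between replicates. They were 16.7% of the genes whose lowest liver had 100 to 200 reads, 11.9% at 200 to 500, 8.21% at 500 to 1000 and 3.42% at 1000 or more. Over the same 4 classes the share of genes that differed by 20 points between the WT livers went from 37.5% to 7.47%, and between the mutant livers from 39.7% to 12.0%. In genes with 2 transcripts, members were 14.3% where the transcripts were 1 to 4 bases apart and 10.3% at 5 to 30 bases. They were 6.96% at 31 to 100 bases and 4.59% at over 100 bases. Over these 4 classes the WT livers differed in 28.6%, 29.7%, 26.2% and 9.55% of genes. The mutant livers differed in 30.6%, 29.7%, 30.6% and 15.5%, so replicate spread was lower mainly beyond 100 bases. The number of transcripts went with membership too: members were 6.49% of genes with 2 transcripts, 12.6% with 3 and 18.4% with 4 or more. The rule accepts any transcript, so a gene with more of them has more ways to enter. Comparisons of all members with the other genes were not matched for this number, a median of 3 in members and 2 in the others. How much of the members' differences comes from depth, from the closeness of transcripts or from their number was not tested. Counting error alone gives a share of 50 in 100 reads a 95% Wilson interval of 40.4% to 59.6%.

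**Figure D3:**
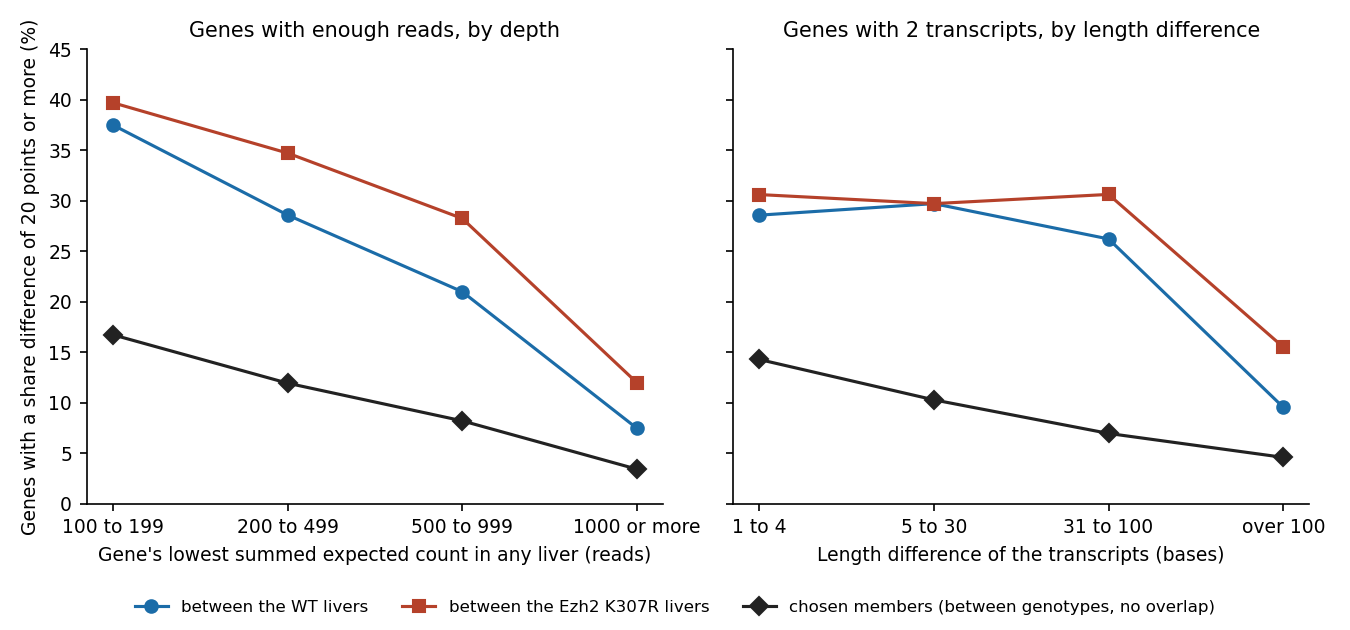
Percent of genes with a transcript share differing by 20 points or more (y axis) between the WT livers (blue), between the Ezh2 K307R livers (red) and, for the chosen members, between genotypes without overlap (black), by the gene's lowest estimated reads in any liver (left) and, in genes with 2 transcripts, by their length difference (right). On the left all 3 lines are lowest at 1000 reads or more, and on the right both replicate lines stay near 30% up to 100 bases and are lower beyond.

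The values nearest the threshold came from genes with unequal replicates. Just inside it were Cbs, Cdv3 and Plxnb2, with mean differences of 20.02, 20.14 and 20.17 points. Just outside were Rarb at 19.97, Msra at 19.98 and Uimc1 at -19.98 points. Cdv3 had none of its WT reads on NM_175565 and 0.971% and 39.3% in the mutant livers, so 1 of the 2 mutant livers carried its entry.

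In 48 members the most abundant transcript was one in both WT livers and another in both mutant livers. Over all genes with enough reads this held for 69, while the top transcript differed between the 2 WT livers in 415 and between the 2 mutant livers in 487. The 48 included all 10 genes described above with a share of at least 80% against at most 20%. The others are given below by what their proteins do.

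Regulators of transcription and chromatin among the 48, beside Gtf2a1, were Hmgb3, Mier1, Hdac10, Nrf1, Chd9, Tle1, Kat14, Asxl2, Stat5a, Zmym5 and Kansl1l. Mier1, which recruits histone deacetylases to promoters, had 92.5% and 70.1% of its reads on NM_001286223 in WT and 0.175% and 14.7% in the mutants. Hmgb3, a chromatin-binding high mobility group protein on the X chromosome, had 58.99% and 76.8% of its WT reads and none of its mutant reads on NM_001293624. Nrf1, nuclear respiratory factor 1, had 1.02% and 0% on NM_001164226 in WT and 88.4% and 45.1% in the mutants, so its mutant livers were nearly as far from each other as from WT.
Hdac10, a deacetylase that acts on polyamines, had none of its WT reads and 63.3% and 48.01% of its mutant reads on NR_028449, a transcript with a non-coding accession. Chd9, a chromodomain remodeller, had 77.01% and 87.7% on NM_177224 in WT and 41.9% and 41.2% in the mutants, a first exon 103992 bases from that of the other transcript. Tle1, a Groucho corepressor, had 43.9% and 30.4% on NM_011599 in WT and 0% and 0.672% in the mutants with gene totals of 975 and 1379 reads in WT and 969.6 and 1337 in the mutants. Its difference of -36.8 points became -11.2 when shares were taken from FPKM, so its entry rests on the unit.

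Kat14, an acetyltransferase subunit, had 32.5% and 37.8% on NM_181417 in WT and 68.1% and 53.7% in the mutants. Asxl2, a Polycomb-associated protein, had 0% and 38.3% in WT and 56.3% and 53.6% in the mutants on NM_001270988, with the 2 WT livers further apart than the gap between the genotypes. Zmym5, a zinc finger protein, had 52.8% and 65.1% in WT and 22.3% and 24.6% in the mutants on NR_136882, and Kansl1l had 21.5% and 30.2% in WT and 67.7% and 86.2% in the mutants on NM_001122738. The gaps of these 4 genes ran from 15.3 to 37.5 points, with the narrowest in Asxl2.

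Proteins of signalling and cell death among the 48 were Tec, Traf2, Dapk3, Bcl2l11, Sphk2, Adck1 and the endothelial adhesion protein Pecam1. Tec, a non-receptor tyrosine kinase, had 42.2% and 52.6% of its reads in WT and none in the mutants on NM_001113461, which lacks the 66-base exon shown above. Traf2, an adaptor of tumour necrosis factor receptors, had 75.1% and 62.4% in WT and 0% and 33.9% in the mutants on NM_001290413. Bcl2l11, which encodes the cell death protein Bim, had 50.3% and 66.7% in WT and 26.4% and 19.8% in the mutants on NM_207680, with gene totals of 111 and 146 reads in WT and 165 and 103 in the mutants. The rule requires the livers of the 2 genotypes to stay apart, and the narrowest gap of these 3 genes was 23.9 points in Bcl2l11.
Sphk2, a sphingosine kinase, had 36.9% and 27.97% on NM_020011 in WT and 55.4% and 51.9% in the mutants. Dapk3, a death-associated kinase, had 51.1% and 51.4% in WT and 14.1% and 37.2% in the mutants on NM_001190473, and Adck1, a mitochondrial protein, had 81.95% and 67.8% in WT and 41.9% and 36.1% in the mutants on NM_001277297. The opposed transcripts of these 3 have different first exons and the same coding sequence.
Pecam1 had 49.3% and 41.9% of its WT reads and 0% and 11.9% of its mutant reads on NM_001032378. It is one of 10 markers of sinusoidal endothelium, all of which were detected, with a summed level of 98.3 and 136 CPM, reads scaled to equal library size, in WT and 142 and 158 in the mutants. The part of cell composition in its shares was not tested, and in bulk tissue fewer cells of a type and less RNA per cell cannot be told apart.

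Enzymes and transporters among the 48 were Acy1, Kyat3, Lipc, Arsg, Slc30a4 and Ttpal. Kyat3, a kynurenine aminotransferase, had the most reads of the 48 in its shallowest liver, with 3300 and 3706 reads in WT and 4377 and 4153 in the mutants. Its form NM_001293560 held 8.59% and 34.1% in WT and 59.2% and 62.4% in the mutants, and the opposed transcripts are 4 bases apart at a splice donor. Lipc, the hepatic lipase that remodels lipoproteins, had 60.6% and 48.1% on NM_001324472 in WT and 29.95% and 34.3% in the mutants. That first exon lies 17418 bases from the one of NM_001324473, and NM_001324472 itself had 1786 and 912 reads in WT and 1803 and 1706 in the mutants, while NM_001324473 had 470.2 and 382 in WT and 2061 and 1282 in the mutants. The lower share of NM_001324472 in the mutants thus stood beside more reads on the other form, not beside fewer of its own on average.
Arsg, arylsulfatase G of lysosomes, had 74.96% and 75.00% on NM_001166177 in WT and 49.3% and 48.4% in the mutants, with replicates within 1 point of each other. Its difference of -26.1 points became -19.4 when shares were taken from FPKM, under the threshold of 20. Slc30a4, a zinc exporter, had 69.6% and 74.8% on the form that skips a 147-base coding exon in WT and 32.2% and 23.4% in the mutants. Acy1, an aminoacylase, had 68.3% and 60.3% on NM_025371 in WT and 35.9% and 41.1% in the mutants. Ttpal, a relative of the tocopherol transfer protein, had 13.8% and 0% on NR_131225 in WT and 78.8% and 58.8% in the mutants.

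The rest of the 48 with large gaps were genes of traffic, translation, the cytoskeleton and unknown role. Fam214b had 75.05% and 86.8% on NM_172691 in WT and 0% and 2.98% in the mutants, from first exons 5929 bases apart. Fam219b had 100% and 100% in WT and 28.1% and 19.02% in the mutants on NM_175273, R3hcc1 38.9% and 37.6% in WT and 95.5% and 81.4% in the mutants on NM_001301651, and Fam214a 59.8% and 58.5% in WT and 31.1% and 27.96% in the mutants on NM_153584. Fam214a had at least 1048 reads in every liver, and its replicates kept within 4 points in both genotypes. Stat5a, Hnrnpd and Cpsf7 are described further on. Tmem184a, Nudcd1, Trim26, Tmem161a, Mtif2, Ncaph2, Klc1 and Tnrc6b complete the 48, with gaps of 33.7 points in Tmem184a down to 5.76 points in Tnrc6b.

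Members with a large gap but the same leading transcript, or none shared by both livers of a genotype, included proteins of cell polarity and DNA repair. Llgl1, a cell polarity protein, had none of its WT reads and 72.5% and 83.4% of its mutant reads on NM_001159404. Nek1, a kinase of cilia and DNA repair, had 100% and 89.96% in WT and 26.9% and 0% in the mutants on NM_175089, which holds a 75-base exon that NM_001293639 lacks. Lig3, a DNA ligase, had 0% and 22.9% in WT and 77.2% and 62.9% in the mutants on NM_001291245. The other transcripts of Lig3 did not follow genotype: NM_010716 held 73.97% and 0.862% of the reads in the WT livers.
Arl14ep had 52.7% and 49.1% on NM_001025102 in WT and 100% and 100% in the mutants, and Trim12c 47.5% and 55.2% in WT and 96.9% and 100% in the mutants on NM_001146007. Both had WT reads on 2 forms in near-equal parts and mutant reads on 1 form almost alone. Tspan33, a tetraspanin, had 100% and 100% on NM_001301407 in WT and 52.5% and 0% in the mutants. Cbfa2t2, a corepressor, had 0% and 8.22% in WT and 48.8% and 100% in the mutants on NM_172860. In these last 2 genes 1 mutant liver divided its reads between the acceptor forms and the other used 1 form alone.

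RNA-processing proteins were themselves among the members. Of 157 genes in lists of splicing regulators, spliceosome, 3′ end and decay factors, 66 had enough reads and transcripts and 7 were members (10.6%, beside 10.1% of all such genes), among them Celf2, Hnrnpd, Rbfox2, Rbm39, Rbm4 and Cpsf7. Hnrnpd, the AU-rich element binding protein AUF1, had 62.2% and 56.2% of its reads in WT and 31.3% and 22.2% in the mutants on NM_001077265, which carries the 57-base exon shown above. The form without it, NM_001077266, had 17.3% and 18.5% in WT and 37.4% and 45.7% in the mutants. Both genotypes kept within 10 points.
Rbm39, a splicing coactivator, had 41.7% and 60.7% in WT and 20.2% and 27.99% in the mutants on NM_133242, the form with 18 more bases at an acceptor. Celf2, a splicing regulator, had 76.1% and 64.9% in WT and 2.54% and 21.8% in the mutants on NM_001310447. Rbfox2, which binds next to regulated exons, had 35.3% and 24.7% in WT and 0% and 8.88% in the mutants on NM_053104. In all 3 the form with the higher share in WT is the one given here, so nothing is read from that direction.
Cpsf7, a subunit of cleavage factor Im, had 52.8% and 51.8% in WT and 0% and 29.1% in the mutants on NM_001164272. Cwc22, a spliceosome protein that loads the exon junction complex and that stands outside those lists, had 5.21% and 0% in WT and 48.1% and 55.5% in the mutants on NM_172667, which lacks the 3 bases shown above. Rbm4 had 35.04% and 14.7% in WT and 46.2% and 45.3% in the mutants on NM_009032.

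At the level of gene totals none of the 152 tested genes of these 5 lists was called between genotypes by edgeR's quasi-likelihood F test. Over all 12837 genes tested only 2.86% were called, so few calls would be looked for in lists of this size. Log2 fold changes in the lists ran from -0.98 to 0.74 with a median of -0.05, beside 0.01 over all genes. An unadjusted p below 0.05 was found for 10 of the 152, and DESeq2 called 2. The 21 tested SR proteins and their kinases, the 40 core spliceosome genes, the 50 hnRNPs and other splice site regulators, the 21 cleavage and polyadenylation factors and the 20 decay factors had medians of -0.05, -0.07, -0.0014, -0.06 and -0.11.

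Alternative first exons were seen in 66 of the 210 members whose opposed transcripts both had a GENCODE model (31.4%, beside 32.3% of the other genes). The starts were a median of 8066 bases apart, up to 635896 bases in Rora, and in 23 of the 66 the coding sequence was the same. A cassette exon differed in 35.2% (33.9% of the others), a splice donor in 16.2% (12.7%) and a retained intron in 5.24% (5.96%). A splice acceptor differed in 24.8% of members and 15.6% of the others, and a last exon in 1.90% and 12.3%. A pair could count under several of these.
Esr1, Gsn and Nnt are described because of their roles in the liver or in blood, a choice made with their values in view. Esr1, the estrogen receptor alpha, had none of its WT reads on NM_001302531, which starts 98134 bases from the main transcript NM_007956, and 312 and 205 reads on it in the mutant livers. The main transcript held 71.2% and 81.3% in WT and 54.4% and 46.99% in the mutants, and both encode the same protein. The total was 991 and 1220 reads in WT and 935 and 1037 in the mutants, so the totals overlapped.
Gsn, an actin-severing protein with secreted and cytoplasmic forms, had 17.5% and 20.5% on NM_146120 in WT and 59.4% and 59.6% in the mutants, from a start 26000 bases from that of NM_001206368. The 2 mutant livers differed by less than 1 point and the WT livers by less than 3 points. Rora, a nuclear receptor of the clock and of lipid metabolism, had 19.3% and 83.6% on NM_001289916 in WT and 99.6% and 93.6% in the mutants, so that WT replicate 1 stood apart from all 3 other livers. Rtn4, a shaper of the endoplasmic reticulum, had 71.2% and 46.1% on NM_024226 in WT and 88.1% and 80.7% in the mutants.
Nnt, the mitochondrial transhydrogenase, had 404 and 353 reads on the longer NM_008710 in WT and 0 and 2.38 in the mutants, beside 1196 and 1527 in WT and 850 and 1062 in the mutants on NM_001308506. The gene is known to carry a deletion of several exons in one substrain of C57BL/6, and the labels do not name the substrain. The part of strain background in these shares was not tested. With FPKM in place of reads the difference in share was -16.1 points, under the threshold of 20.

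**Figure D4:**
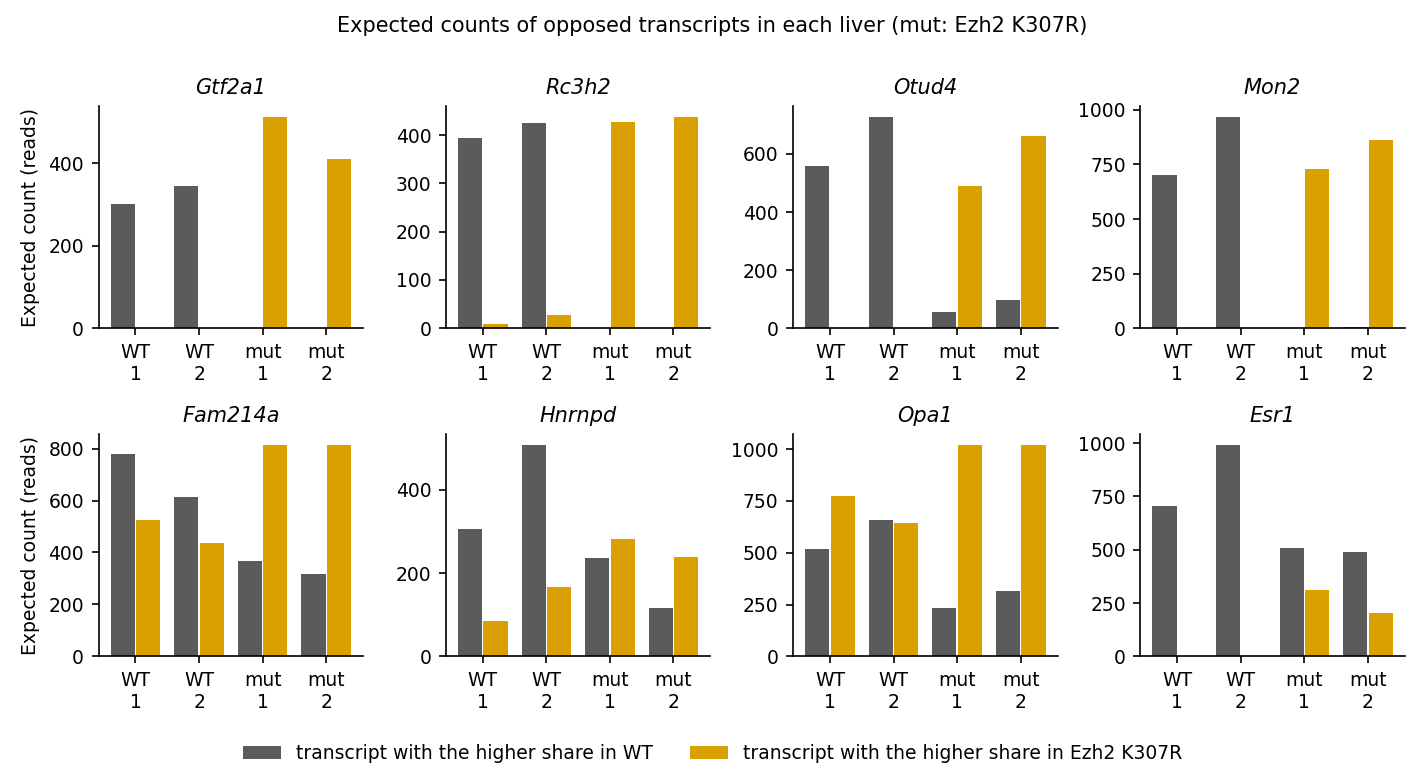
Estimated reads (y axis, from 0, scales differ between panels) on the opposed transcripts of 8 members in each liver, grey for the transcript with the higher share in WT and yellow for the one with the higher share in Ezh2 K307R. In Gtf2a1, Rc3h2, Otud4 and Mon2 the transcript with most of the reads in both WT livers holds fewer than 100 in either mutant liver. In Fam214a, Hnrnpd, Opa1 and Esr1 the transcript with the higher share in WT holds more than 100 reads in both mutant livers.

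The 22 members with at least 1000 reads in every liver, a class set apart after their values were seen, are described next. A gap of 20 points or more was present in 7 of the 22, beside 102 of all 265 members. These 7 were Fam214a, Sec24a, Kyat3, Sirt2, Hipk3, Sumo3 and Hp1bp3. Sec24a, a cargo adaptor of COPII vesicles, had 17.7% and 0% on NM_001290785, the form without 3 bases, in WT and 68.8% and 44.5% in the mutants. Sirt2, a deacetylase of tubulin and histones, had 21.8% and 28.1% on NM_001122765 in WT and 49.4% and 57.8% in the mutants. Opa1, which fuses inner mitochondrial membranes, had 40.1% and 50.6% in WT and 18.5% and 23.6% in the mutants on the form with the 54-base exon shown above, with gene totals of 1292 and 1305 reads in WT and 1253 and 1337 in the mutants.
Sumo3, a small ubiquitin-like modifier, had 94.5% and 86.2% on NM_019929 in WT and 65.9% and 62.8% in the mutants, while NM_019929 itself had 1015 and 1015 reads in WT and 1042 and 983 in the mutants. Its mutant livers had about as many reads on the main form as WT and further reads on others. Hp1bp3, a heterochromatin protein, had 74.3% and 54.00% in WT and 26.9% and 33.9% in the mutants on NM_010470. Hipk3, a nuclear kinase, had 100% and 92.3% in WT and 71.6% and 0.0449% in the mutants on NM_010434, and Mfn2, a mitofusin, had none in WT and 49.3% and 8.70% in the mutants on NM_001285922. In both of these the mutant livers were further apart than the gap between the genotypes.

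The gene totals of most members were not called. All 265 were tested by edgeR's quasi-likelihood F test over 12837 genes, and 5 were called at an adjusted p below 0.05 (1.89%), against 2.86% of all genes. Of the 5, 4 were higher in the mutant livers (1.39% of all genes were) and 1 was lower (1.47% of all genes were). Since the contrast is the one that chose the members, nothing is read from these counts. The members' median log2 fold change was 0.04, beside 0.01 over all genes, and 257 of the 265 were within a 2-fold change.
Plekhb1, a pleckstrin homology protein, rose by 1.80 ± 0.29 on the log2 scale (± SE, adjusted p = 0.0233 by edgeR), from 196 and 168 to 780.0 and 506 reads, and its form NM_001163184 held 47.8% and 0% in WT and 94.4% and 89.1% in the mutants. Cbs, cystathionine beta-synthase of homocysteine clearance, rose by 1.31 ± 0.24 (adjusted p = 0.0348), from 4288 and 4596 to 11882 and 10182 reads. Pnkd rose by 1.39 ± 0.24 (adjusted p = 0.0271) and Stat5a, the growth hormone and prolactin signal transducer, by 1.23 ± 0.25 (adjusted p = 0.045). Adora1, the adenosine A1 receptor, had -1.77 ± 0.22 (adjusted p = 0.00886), from 285 and 424 to 104 and 101 reads, so it was the member that fell.
In Cbs the form NM_178224 held 10.5% and 28.9% in WT and 36.9% and 42.5% in the mutants, and in Stat5a NM_011488 held 18.5% and 36.2% in WT and 52.8% and 51.9% in the mutants. Pnkd had 45.3% and 43.01% in WT and 63.5% and 68.2% in the mutants on NM_019999, with close replicates in both genotypes. Without 1 liver some of these calls were lost: Pnkd had an adjusted p of 0.0629 without Ezh2 K307R replicate 2, Stat5a 0.0639 without WT replicate 2 and 0.185 without Ezh2 K307R replicate 2, and Cbs 0.0958 and 0.0536 without Ezh2 K307R replicate 1 and replicate 2 in turn. With the replicate block Stat5a had an adjusted p of 0.0664. The calls of Plekhb1 and Adora1 held in every one of these fits.

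**Figure D5:**
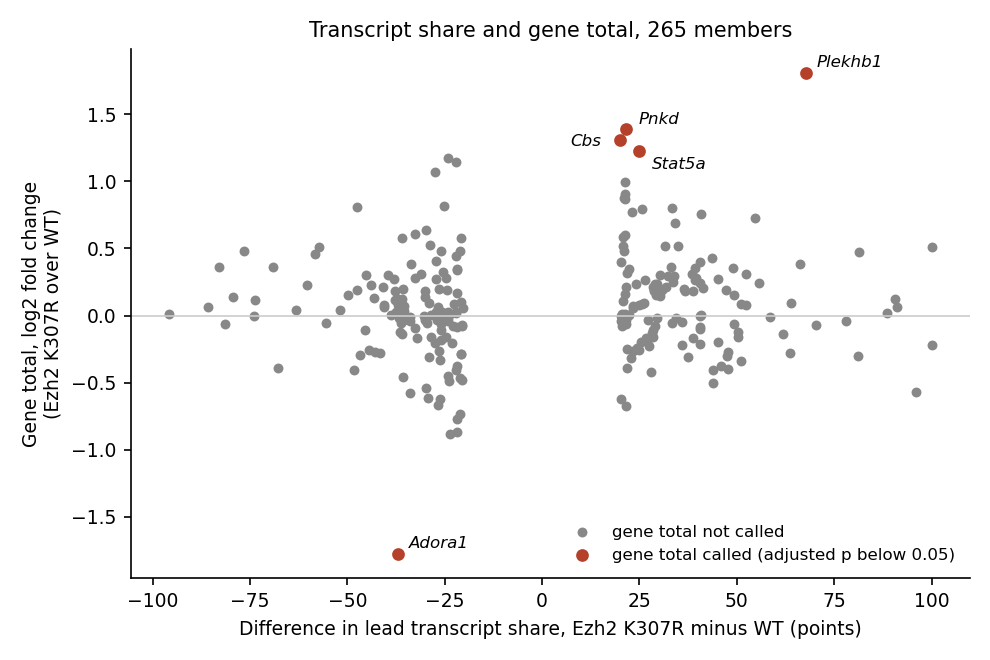
Log2 fold change of the gene total, Ezh2 K307R over WT (y axis), against the difference in share of the lead transcript (x axis, percentage points), with 1 point per member and the 5 called gene totals in red. Points are absent between -20 and 20 because of the rule, and most lie near 0 on the y axis at every difference in share.

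Other properties of the 4 livers moved with the genotype label. Library totals were 19289715 and 20044832 estimated reads in WT and 18602928 and 18749610 in the mutants. All 10 hepatocyte markers were detected in every liver, with albumin at 98489 to 105307 CPM. Ezh2 itself was at 3.36 and 3.93 CPM in WT and 3.45 and 2.56 in the mutants, which does not show the point mutation. Xist was at 0.347 and 0.284 CPM in WT and 327 and 573 in the mutants, and the Y-linked Ddx3y at 67.6 and 52.4 against 0 and 0, so the sex chromosome pattern coincided with genotype. Arntl, a core clock gene, was at 1.10 and 1.18 CPM in WT and 12.3 and 23.7 in the mutants. Dbp, a clock output gene, was at 136 and 115 CPM in WT and 32.4 and 1.02 in the mutants. Its total was not called (adjusted p = 0.216 by edgeR), and its mutant livers lay far from each other. Of the female-biased liver genes 21 of 49 were called higher and 2 lower in the mutants, and of the male-biased 22 of 45 lower and 1 higher. Over all 12837 genes tested, 1.39% were called higher and 1.47% lower. The male-biased genes summed to 57514 and 22690 CPM in WT and 8269 and 9603 in the mutants, so the WT livers also differed from each other. The female-biased genes summed to 2870 and 4377 CPM in WT and 16111 and 14270 in the mutants. Rtn4, a member, is on the female-biased list, and its total was not called (adjusted p = 0.0772 by edgeR). Of 30 entries on the clock list 5 were called higher and 7 lower, and Rora was a member. Ciart was entered again under its other name Gm129, so it is counted again among the entries and the lower calls. The 10 stellate cell markers summed to 152 and 249 CPM in WT and 543 and 430 in the mutants, with 2 of the 10 called higher. The red blood cell markers summed to 329 and 491 CPM in WT and 657 and 743 in the mutants, and the Kupffer cell markers to 286 and 333 in WT and 502 and 348 in the mutants, with none called in either list. In all 3 lists both mutant livers were above both WT livers, and the part of these cells in the members' shares was not tested. For the members' shares, genotype, sex chromosomes and clock state cannot be told apart with these livers. The part of substrain, which the labels do not give, was not tested either. Of the 9 members on the X chromosome, out of 100 X-linked genes with enough reads, Hmgb3 had the largest gap.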

How the data were processed

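Liver RNA of 2 WT and 2 Ezh2 K307R samples was analysed, grouped by the labels. Each deposited table lists RefSeq transcripts with Entrez gene numbers. Its expected counts are the authors' estimated counts per transcript, not normalized, per the file headers, and its FPKM, also deposited, are scaled to transcript length and depth, per the file headers. Bowtie2, HISAT, RSEM and mm10 are named without versions or roles per the submitters' processing notes, and neither the read length nor the strandedness is given in the labels, so overlapping and antisense genes are uncertain. FPKM served only for an alternative.

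A share is a transcript's expected count over the sum of its gene, with absent transcripts at 0. Expected counts were also summed per gene, rounded to whole numbers and tested with edgeR 4.0.16 (R 4.3.3; TMM, filterByExpr, quasi-likelihood F test, genotype only, Benjamini-Hochberg over 12837 genes, threshold 0.05, 2 residual degrees of freedom). CPM are on the TMM scale. The SE of a log2 fold change is its absolute value over the square root of the F statistic, and was not fitted directly. DESeq2 1.42.0 was an alternative. The scripts were tested on simulated data. Library totals are in the report, and the counting interval given covers counting error only. Symbols came from RefSeq on GRCm38.p6. Exon structures and sequences came from GENCODE M21 (GRCm38), whose models were matched to both opposed transcripts in 210 of 265 members.

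Members and gene lists were chosen with earlier results of these data known. Named genes were the 30 members with the largest gap, members whose most abundant transcript switched, members in a list, the 3 genes nearest each side of the threshold, and genes of the lists with called totals. A listed member is not reported here. Those named outside this rule (Esr1, Gsn, Nnt, Sirt2, Opa1, Sumo3, Hp1bp3, Hipk3, Mfn2, Sec24a, Smarca4 and the other genes with pairs 3 bases apart, Pnkd and Adora1) were chosen after their values were seen.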

Additional observations from a re-analysis of the deposited data

How the results depend on the processing

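The number of members moved with the thresholds. Of the 265 members, 256 were among the 269 found with FPKM shares. There were 65 at 500 reads or more in every liver, 140 with a difference of at least 0.3, 566 with at least 0.1 and 101 when transcripts had to be listed in all 4 livers, 95 of them shared. Requiring transcripts over 100 bases apart, an alternative chosen after seeing the data, left 98. Leaving out 1 liver, which leaves 1 sample in a genotype and so makes overlap easier to avoid, gave 513 to 569. With the replicate block, both same-numbered pairs differing one way, there were 308. With FPKM shares none of the differences of 91 named members reversed, 4 moved by more than the replicate spread (Tle1, Arsg, Nnt and Pnkd), and 5 came under 20 points (Tle1, Arsg, Nnt, Ddx17 and Cdv3). Leaving out 1 liver cannot reverse a difference chosen for lack of overlap and shifts it only by what the replicates differ, so it shows no stability. It changed 42 of 364 differences, in 28 members, by over 1.5 times and brought 47 under 20 points, for example Hipk3 from -60.3 to -24.5 without Ezh2 K307R replicate 2 and Asxl2 from 35.8 to 16.6 without WT replicate 1. For gene totals, DESeq2 called 739 and 14 members, no filter 829 and 14, and leaving out 1 liver, with the lone sample assumed to vary like the others, 211 to 720 and 2 to 10, against 367 and 5. The replicate block gave 347 and 7. Same-numbered samples did not deviate together (correlation -0.0027), so the numbers were not used as pairs. The design has 2 livers a genotype, so exact tests of single shares could not reach a small p, and depth limits shares near 100 reads.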
